A study of Mus musculus with 17 samples.

Results

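Interleukin-10 (IL-10) and the genes through which a macrophage receives its signal were followed in sorted kidney macrophages of lupus-prone mice. The 8 genes were chosen by name from the known pathway: the ligand gene Il10, the receptor genes Il10ra and Il10rb, the kinase genes Jak1 and Tyk2, the transcription factor gene Stat3, and Socs3 and Bcl3, 2 of its target genes. They were chosen with earlier results of these data known, among them the rise and fall of Il10, so the test of Il10 is no independent support. Each of the 8 had 1 probe set among the 15780 named genes on the arrays. The study measured gene expression on 17 Affymetrix arrays in F4/80hi macrophages (cells with much of this macrophage protein on their surface), sorted from kidneys of NZB/W mice, a hybrid strain that develops lupus nephritis on its own. The prenephritic group (6 arrays) came from mice at 8 to 16 weeks of age. The nephritic group (7 arrays) was taken 2 to 6 weeks after proteinuria began and before the kidneys failed. The remission group (4 arrays) was taken 3 to 4 weeks after a complete remission in mice given cyclophosphamide (1 dose), CTLA4Ig (6 doses), which blocks T cell costimulation, and anti-CD154, an antibody to the ligand of CD40. The sample titles call the prenephritic mice young, so age and nephritis cannot be told apart, nor can remission and the drugs that every mouse of that group had received. The labels do not state that each array had an animal of its own, and the p-values therefore cover only the spread between these samples, which may be technical.

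IL-10 is a cytokine that restrains inflammatory responses, and macrophages both make it and respond to it. It binds a receptor of Il10ra, the ligand-binding chain, and Il10rb, a chain shared with receptors of related cytokines. The receptor activates the kinases JAK1, bound to the first chain, and TYK2, bound to the second, and these activate the transcription factor STAT3. Among the genes that STAT3 switches on in macrophages are Socs3, an inhibitor of cytokine receptors such as that of IL-6, and Bcl3, a nuclear protein of the IκB family that binds NF-κB subunits and limits transcription of some inflammatory genes.

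All levels below are log2 expression values, on which a difference of 1 is a 2-fold change, and differences are given with their standard error from limma, with p-values adjusted by the Benjamini-Hochberg method over 15780 genes and a threshold of 0.05. A gene is said to have risen, fallen or passed only by that test. Array correlations over all genes ran from 0.942 to 0.994. The macrophage label held: Adgre1, the gene of the surface protein used in the sort, had group means of 13.08 ± 0.18 (SD, n = 6), 13.24 ± 0.09 (SD, n = 7) and 13.23 ± 0.14 (SD, n = 4) in prenephritic, nephritic and remission arrays, and the 9 measured genes of 10 macrophage markers had array means between 12.16 and 12.57. Of these markers, Mertk, a receptor for dying cells (1.22 ± 0.21, limma adjusted p = 0.0012), and Fcgr1 rose and Cd14 fell (−0.35 ± 0.11, adjusted p = 0.047) in nephritic arrays, the last a call that 16 of 28 alternative fits lost. Being highest or lowest of the group was counted only for prenephritic replicates 4 and 5 and nephritic replicates 1 and 6. These arrays had the highest and lowest prenephritic Il10 levels (8.12 and 4.66) and the highest nephritic ones (10.41 and 9.71). Of these arrays, a pair is said below to stand apart on cytokine genes, with no such count for the other arrays. Among 19 genes that IL-10 is known to inhibit in macrophages, nephritic replicate 6 was the highest of its group in 16 (84.2%, against 13.0% of all genes), and prenephritic replicate 5 was the lowest of its group in 12 (63.2%, against 17.9%). Among 13 genes that IL-10 is known to induce, nephritic replicate 6 was the highest in 8 (61.5%) and prenephritic replicate 5 the lowest in 4 (30.8%). Prenephritic replicate 4 was the highest of its group in 6 of those 13 (46.2%, against 17.5% of all genes). The calls for the IL-10 genes are therefore also given without nephritic replicate 6 and prenephritic replicate 5. These 2 arrays had the highest nephritic and the lowest prenephritic Il10 level (10.41 and 4.66). Leaving them out thus makes the Il10 differences from nephritic arrays smaller by the choice of arrays. The arrays also carried RNA of kidney tubule cells, with a tubule score (mean centred log2 value of 21 tubule genes) of −0.11 ± 0.62 (SD, n = 6), −0.35 ± 0.89 (SD, n = 7) and 0.78 ± 0.62 (SD, n = 4). The score is centred and gives no level. The array means of the 11 measured proximal tubule genes had medians of 10.27, 10.10 and 11.19 in prenephritic, nephritic and remission arrays. For the 10 distal tubule and collecting duct genes the medians were 8.95, 8.90 and 9.86. The part of the tubule score in the differences was examined by a fit that holds it as a covariate.

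The ligand, the transcription factor and both target genes were higher in nephritis than before it and lower again in remission, while no difference of the receptor chains or kinases passed the test. Of the 8 genes, 4 rose and 0 fell in nephritic against prenephritic arrays, where 12.1% of all genes passed (6.74% higher and 5.32% lower). In remission against nephritic arrays 4 fell and 0 rose, where 13.3% of all genes passed (3.27% higher and 10% lower). In remission against prenephritic arrays 0 of 8 passed, where 0.00634% of all genes passed, which is 1 gene. At an unadjusted p below 0.05 this last limma comparison held 2 of the 8, Il10ra and Tyk2. The median difference of the 8 genes was 0.36, −0.55 and −0.14 in these comparisons, against −0.02, −0.03 and −0.05 over all genes. The first and second comparisons share the nephritic arrays, so their values stand side by side and are not separate evidence. Il10 is among the 4 in both, and its change was known when the genes were chosen.

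**Figure D1:**
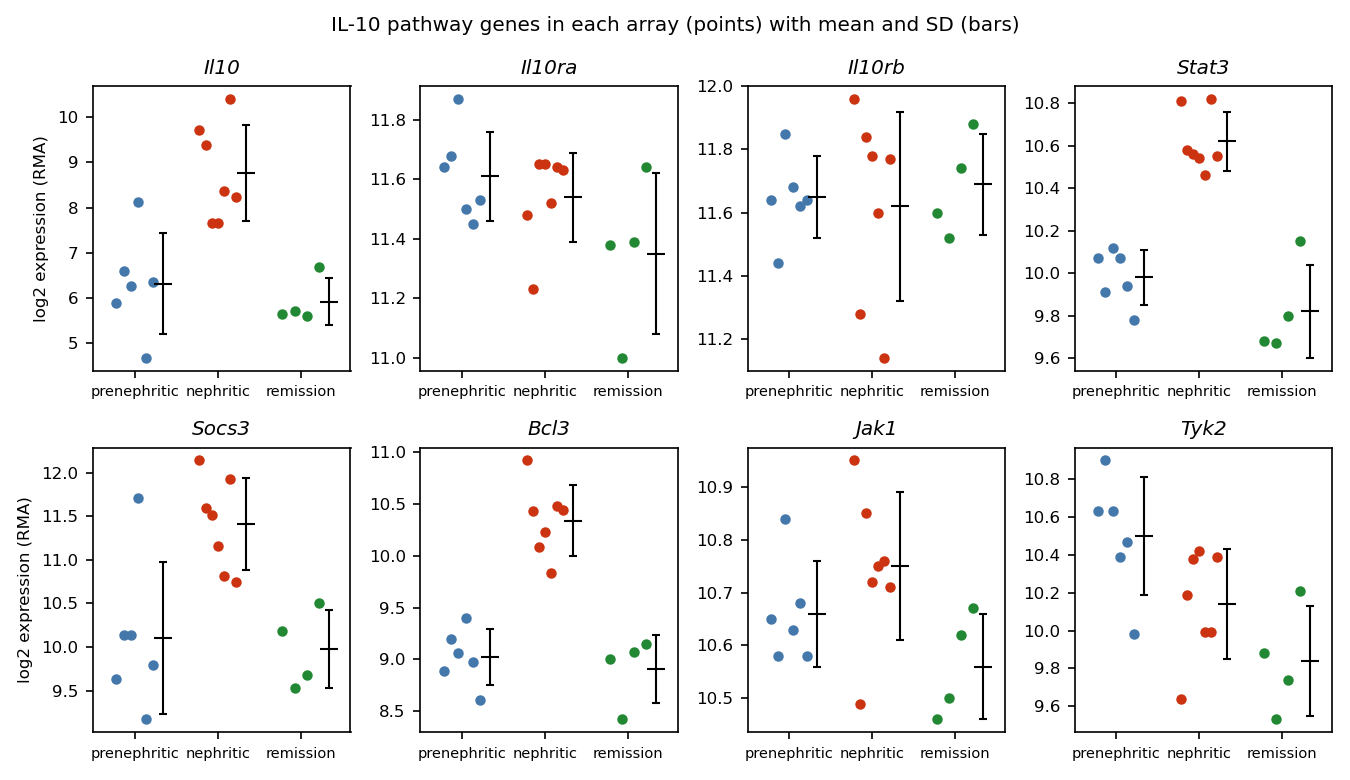
Log2 expression (RMA, vertical axes, each on its own scale) of the 8 genes in each array (points) by group, with the group mean and SD (bars) for 6 prenephritic, 7 nephritic and 4 remission arrays. Nephritic arrays lie above all others for Stat3 and Bcl3, and prenephritic replicate 4, at 8.12 for Il10 and 11.71 for Socs3, lies within the nephritic range for those genes.

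Il10 itself had the largest differences of the 8 genes between nephritic arrays and both other groups. Its lowest, median and highest values were 4.66, 6.30 and 8.12 in prenephritic arrays and 7.65, 8.37 and 10.41 in nephritic arrays. In remission arrays it was at 5.64, 5.71, 5.59 and 6.69. Every nephritic array was above every remission array, and prenephritic replicate 4 alone reached into the nephritic range, above the 2 nephritic arrays at 7.65 and 7.66. The group means were 6.31 ± 1.12 (SD, n = 6), 8.77 ± 1.07 (SD, n = 7) and 5.91 ± 0.52 (SD, n = 4). Il10 rose by 2.47 ± 0.51 in nephritic arrays, or 5.53-fold (95% interval 1.38 to 3.55 on the log2 scale, limma adjusted p = 0.0043). It fell by 2.86 ± 0.58 in remission, or 7.28-fold (95% interval of the difference −4.09 to −1.64, limma adjusted p = 0.0041). Without the 2 arrays that stood apart the differences were 1.86 ± 0.44 (limma adjusted p = 0.017) and −2.59 ± 0.47 (adjusted p = 0.0032). A stricter limma test that asks for a change of at least 1.5-fold gave an adjusted p of 0.11 for both differences. In bulk samples such as these, fewer cells that make a transcript and less transcript per cell cannot be told apart.

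No difference of the receptor chains between groups passed the test. Il10ra, which binds IL-10, had lowest, median and highest values of 11.45, 11.59 and 11.87 in prenephritic and 11.23, 11.63 and 11.65 in nephritic arrays. In remission arrays it was at 11.38, 11, 11.39 and 11.64. The ranges overlapped in every comparison, and the 95% interval of nephritic minus prenephritic was −0.28 to 0.14 on the log2 scale (difference −0.07 ± 0.10, limma adjusted p = 0.74). For remission the difference was −0.19 ± 0.11 against nephritic (adjusted p = 0.29) and −0.26 ± 0.12 against prenephritic arrays (adjusted p = 0.25).

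Il10rb, the shared chain, had lowest, median and highest values of 11.44, 11.64 and 11.85 in prenephritic and 11.14, 11.77 and 11.96 in nephritic arrays, and was at 11.60, 11.52, 11.74 and 11.88 in remission. Its groups overlapped almost wholly, and the nephritic arrays were the most spread, with an SD of 0.30 (n = 7) against 0.13 (n = 6) in prenephritic arrays. The array with the most Il10, nephritic replicate 6, had the least Il10rb. The differences were −0.02 ± 0.12 for nephritic minus prenephritic (95% interval −0.28 to 0.23, limma adjusted p = 0.94) and 0.06 ± 0.14 for remission minus nephritic (95% interval −0.23 to 0.35, adjusted p = 0.82). These intervals leave room for changes of up to 0.35 on the log2 scale, and the sign of both differences turned when single arrays were left out.

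The receptor kinases did not pass the test in any comparison. Jak1 had lowest, median and highest values of 10.58, 10.64 and 10.84 in prenephritic and 10.49, 10.75 and 10.95 in nephritic arrays, with 10.46, 10.50, 10.62 and 10.67 in remission. All groups overlapped, and its differences were 0.09 ± 0.07 for nephritic minus prenephritic (limma adjusted p = 0.49) and −0.18 ± 0.08 for remission minus nephritic arrays (adjusted p = 0.13). Without nephritic replicate 2 the second became −0.23 ± 0.07 and passed (adjusted p = 0.041).

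Tyk2 had a different order, highest in prenephritic and lowest in remission arrays. Its lowest, median and highest values were 9.98, 10.55 and 10.90 in prenephritic and 9.64, 10.19 and 10.42 in nephritic arrays, and it was at 9.88, 9.53, 9.74 and 10.21 in remission. Neighbouring groups in this order overlapped widely. The difference was −0.36 ± 0.15 for nephritic minus prenephritic (limma adjusted p = 0.16), −0.30 ± 0.17 for remission minus nephritic (adjusted p = 0.26) and −0.66 ± 0.18 for remission minus prenephritic arrays (95% interval −1.04 to −0.28, adjusted p = 0.16). The last passed in limma with array weights (−0.72 ± 0.16, adjusted p = 0.037) and without prenephritic replicate 6, the lowest prenephritic array (−0.76 ± 0.17, adjusted p = 0.042). With the tubule score as a covariate the first passed as well (−0.41 ± 0.13, adjusted p = 0.034).

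Stat3 separated nephritic arrays from all others. Its lowest, median and highest values were 9.78, 10.01 and 10.12 in prenephritic and 10.46, 10.56 and 10.82 in nephritic arrays, and it was at 9.68, 9.67, 9.80 and 10.15 in remission. The lowest nephritic array was above the highest of either other group. In nephritic against prenephritic arrays 2 of the 8 genes, Stat3 and Bcl3, had groups that did not overlap, where 4.68% of all genes did so (3.07% higher and 1.61% lower). In remission against nephritic arrays Il10, Stat3, Socs3 and Bcl3 had groups that did not overlap, where 8.65% of all genes did so (1.7% higher and 6.95% lower). Stat3 rose by 0.64 ± 0.09, or 1.55-fold, in nephritic arrays (95% interval 0.45 to 0.82, limma adjusted p = 2e-04). It fell by 0.79 ± 0.10, or 1.73-fold, in remission (limma adjusted p = 0.00015). Without the 2 arrays that stood apart the differences were 0.59 ± 0.10 and −0.76 ± 0.10 (limma adjusted p = 0.0017 and 0.00063).

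Bcl3 moved by over 1 on the log2 scale with small spread. Its lowest, median and highest values were 8.61, 9.01 and 9.40 in prenephritic and 9.83, 10.43 and 10.92 in nephritic arrays, with 9, 8.42, 9.07 and 9.15 in remission. Again no array of another group reached the nephritic range. Bcl3 rose by 1.32 ± 0.17, or 2.50-fold, in nephritic arrays (95% interval 0.97 to 1.67, limma adjusted p = 9.3e-05) and fell by 1.43 ± 0.19, or 2.70-fold, in remission (95% interval of the difference −1.83 to −1.04, limma adjusted p = 0.00021). Without the 2 arrays that stood apart the differences were 1.29 ± 0.19 and −1.41 ± 0.20 (limma adjusted p = 0.001 and 0.00086).

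Socs3 changed by as much as Bcl3 but varied more between arrays of a group. Its lowest, median and highest values were 9.17, 9.97 and 11.71 in prenephritic and 10.75, 11.51 and 12.14 in nephritic arrays, and it was at 10.19, 9.53, 9.68 and 10.50 in remission. Prenephritic replicate 4, the prenephritic array with the most Il10, had a Socs3 level in the middle of the nephritic range, and the other 5 prenephritic arrays were below all nephritic ones. Socs3 rose by 1.31 ± 0.34, or 2.48-fold, in nephritic arrays (95% interval 0.59 to 2.03, limma adjusted p = 0.018) and fell by 1.44 ± 0.38, or 2.70-fold, in remission (95% interval of the difference −2.25 to −0.63, limma adjusted p = 0.02). These calls were the least firm of the 4 genes. Without the 2 arrays that stood apart the rise was 1.04 ± 0.35 (limma adjusted p = 0.089). Without prenephritic replicate 4 it was 1.64 ± 0.26 (adjusted p = 0.00088), and the fall in remission was −1.44 ± 0.28 (adjusted p = 0.0034). Leaving out the highest prenephritic array makes the rise larger by the choice of array. The fall missed the threshold without remission replicate 2 (−1.29 ± 0.43, adjusted p = 0.087), without remission replicate 3 (−1.34 ± 0.43, adjusted p = 0.064) and with the tubule score as a covariate (−1.39 ± 0.46, adjusted p = 0.076).

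**Figure D2:**
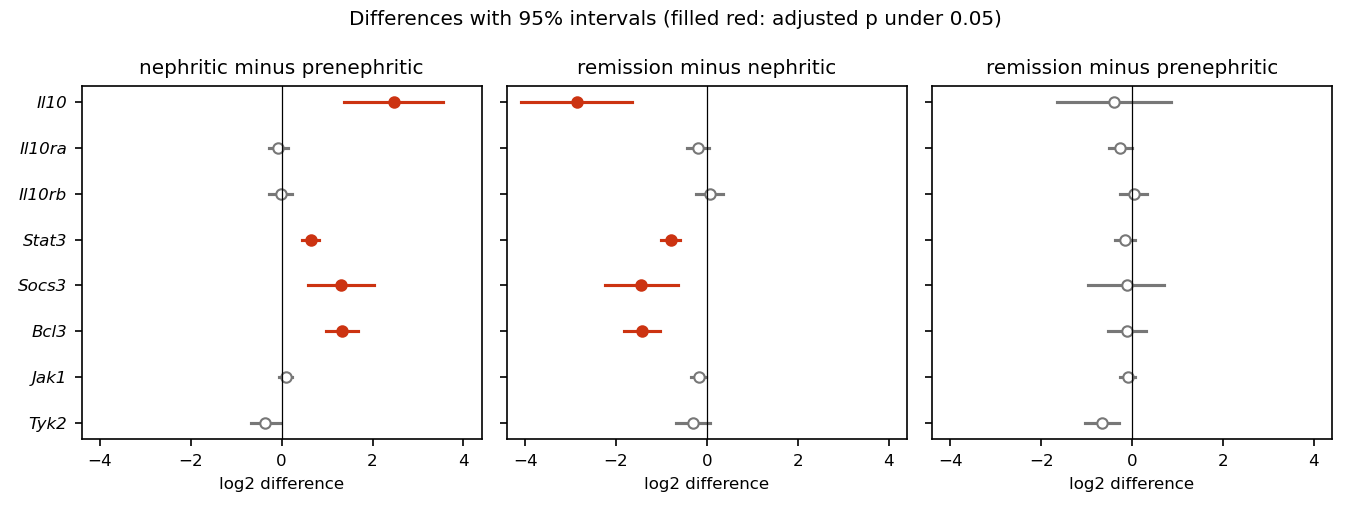
Log2 differences (horizontal axes) of the 8 genes with 95% intervals (lines) in the 3 comparisons of the group means, filled red where the limma adjusted p was below 0.05. Il10, Stat3, Socs3 and Bcl3 lie to the right of 0 in nephritic minus prenephritic and to the left in remission minus nephritic arrays, and no gene is filled in remission minus prenephritic arrays.

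Sequence upstream of the genes was read from RefSeq promoter windows of the mouse assembly GRCm38.p6, which were matched by symbol for 5 of the 8 genes (Stat3, Socs3, Bcl3, Jak1 and Tyk2). The 250 bases before the annotated start are shown for the 3 that rose in nephritis and fell in remission, on the gene's strand, 5′ to 3′, in lower case. Capitals mark a match to TTCNNNGAA, the consensus of the elements that STAT dimers bind, which reads the same on both strands. All 3 genes are on the minus strand, at chr11:117969367-117969616 for Socs3, chr11:100939541-100939790 for Stat3 and chr7:19822756-19823005 for Bcl3.
Socs3: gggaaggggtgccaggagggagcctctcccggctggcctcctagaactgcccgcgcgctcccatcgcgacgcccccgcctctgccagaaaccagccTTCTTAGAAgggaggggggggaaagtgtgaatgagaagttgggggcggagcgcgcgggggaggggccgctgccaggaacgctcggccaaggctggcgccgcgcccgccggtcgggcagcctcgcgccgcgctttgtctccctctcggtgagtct
Stat3: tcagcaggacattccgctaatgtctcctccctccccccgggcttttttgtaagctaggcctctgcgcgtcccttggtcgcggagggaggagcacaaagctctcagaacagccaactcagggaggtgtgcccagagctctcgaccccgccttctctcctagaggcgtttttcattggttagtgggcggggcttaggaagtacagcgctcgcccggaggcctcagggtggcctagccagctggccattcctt
Bcl3: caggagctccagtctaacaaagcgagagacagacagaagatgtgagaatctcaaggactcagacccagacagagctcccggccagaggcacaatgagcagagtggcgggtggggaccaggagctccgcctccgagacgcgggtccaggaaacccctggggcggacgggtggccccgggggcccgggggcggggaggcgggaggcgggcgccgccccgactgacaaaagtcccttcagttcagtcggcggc
In the whole windows, which also take in 50 bases after the start, Socs3 alone of the 5 held a match, TTCTTAGAA, whose position was −154 from the start. Of all 32851 promoter windows in the table, 2726 (8.3%) held at least 1 match. The match is a description of the letters in this window and no measure of binding.

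Between remission and prenephritic arrays no difference of the 4 genes that moved passed the test. The differences of remission minus prenephritic were −0.40 ± 0.60 for Il10 (95% interval −1.66 to 0.86), −0.16 ± 0.10 for Stat3 (−0.37 to 0.06), −0.12 ± 0.39 for Socs3 (−0.96 to 0.71) and −0.11 ± 0.19 for Bcl3 (−0.52 to 0.30), with limma adjusted p between 0.39 and 0.88. For each of these genes the order of group means was nephritic, prenephritic, remission, and the last 2 of them overlapped. For all 8 genes remission and prenephritic arrays overlapped, while 2.32% of all genes had groups that did not (0.393% higher and 1.93% lower). The intervals are wide for Il10 and Socs3. That of Il10 leaves room for a remission level lower by up to 1.66 or higher by up to 0.86 on the log2 scale. These groups also differed in tubule genes, by a median of 0.87 for the proximal and 1.03 for the distal list. Of these genes 0 passed, and 1 of 11 and 6 of 10 had an unadjusted p below 0.05 in limma. With the tubule score as a covariate Il10 differed by −0.80 ± 0.63 (limma adjusted p = 0.86). Leaving out prenephritic replicate 4 turned the sign for Socs3 (0.20 ± 0.30), and leaving out remission replicate 2 turned it for Socs3 (0.03 ± 0.44) and Bcl3 (0.05 ± 0.19).

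Whether the other 7 genes followed Il10 from array to array was examined within the prenephritic and the nephritic group, and no relation passed after adjustment over 14 tests. In the 6 prenephritic arrays Il10 and Socs3 had Pearson's r = 0.96 (exact two-sided permutation p = 0.0042, adjusted p = 0.058) and Spearman's rho = 0.94 (exact permutation p = 0.017). Leaving out the 2 arrays most distant from the median Il10 level gave r = 0.75 over 4 arrays. In the 7 nephritic arrays Il10 and Stat3 had r = 0.83 (exact permutation p = 0.022, adjusted p = 0.16) and rho = 0.68 (exact permutation p = 0.11), and r was 0.22 without the 2 farthest arrays. Leaving out the farthest arrays narrows the range of Il10, which by itself can lower r. It therefore cannot decide whether a relation rests on those arrays. Il10 and Socs3 in nephritic arrays had r = 0.70 (exact permutation p = 0.088, adjusted p = 0.31), rho = 0.64 (exact permutation p = 0.14) and r = 0.22 without the 2 farthest. For Bcl3 r was 0.63, and 0.36 without them. Tyk2 went the other way in nephritic arrays, with r = −0.73 (exact permutation p = 0.063, adjusted p = 0.29) and −0.56 without the 2 farthest. Il10ra, Il10rb and Jak1 had r of −0.38, −0.60 and −0.01, and −0.96, −0.96 and −0.88 over the 5 arrays left. Among those 5, nephritic replicate 2 had the highest Il10 (9.38) and the lowest Il10ra, Il10rb and Jak1 (11.23, 11.28 and 10.49). Its Il10ra value is also flagged as an outlier below. The r over 5 arrays were not tested, and how far they rest on this 1 array was not examined.

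**Figure D3:**
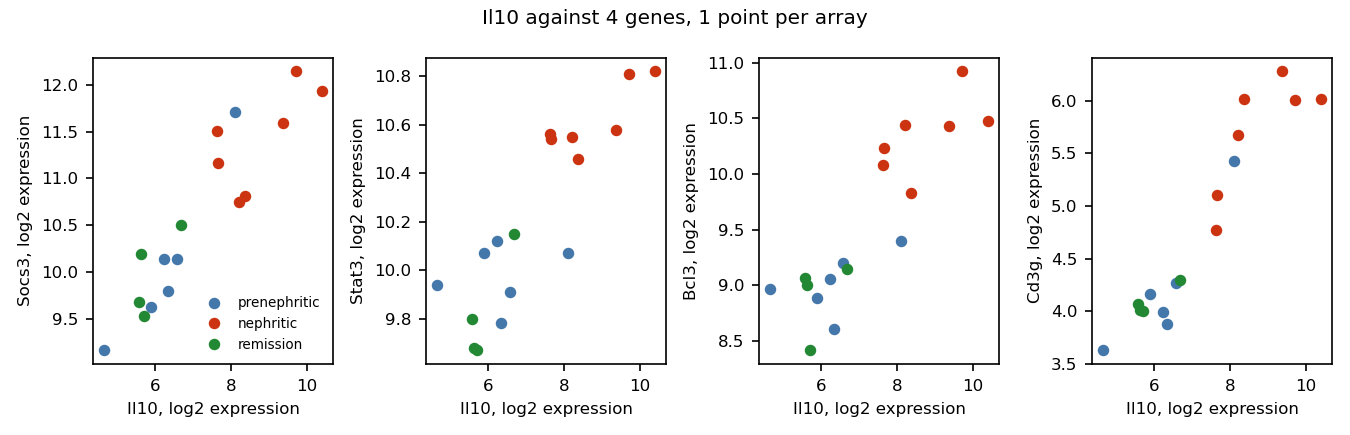
Il10 (horizontal axes) against Socs3, Stat3, Bcl3 and Cd3g (vertical axes), all as log2 expression, with 1 point per array coloured by group. Nephritic arrays occupy the upper right of each panel, and 1 prenephritic array with Il10 at 8.12 lies beside them for Socs3 and Cd3g but not for Stat3 or Bcl3.

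The genes whose levels over the 17 arrays were most like those of Il10 were taken by Pearson's r, as a description that mixes the difference between groups with the spread inside them. They were Cd3g, a chain of the T cell receptor complex (r = 0.95 over 17 arrays and 0.77 over the 7 nephritic arrays alone), Gtf2f2, a subunit of the general transcription factor TFIIF (0.94 and 0.74), and Gadd45b, a stress response gene (0.94 and 0.92). Next came Tnip1, an inhibitor of NF-κB signalling (0.94 and 0.90), Sin3b, a subunit of a transcriptional repressor complex (0.93 and 0.70), and Dusp2, a phosphatase of MAP kinases (0.93 and 0.89). Gadd45b, Tnip1 and Dusp2 kept r of at least 0.89 within nephritic arrays. Among the 8 genes Socs3 had r = 0.92 and was number 11 of all genes by this measure, Bcl3 and Stat3 had r = 0.88 (numbers 48 and 49), and Jak1, Il10ra, Tyk2 and Il10rb had r of 0.41, 0.11, −0.15 and −0.25.

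Around these genes, 91 of 105 listed genes of the wider pathway were measured. In nephritic against prenephritic arrays 13 of them rose and 5 fell (19.8%, against 12.1% of all genes), with a median difference of 0.04 against −0.02 over all genes. In remission against nephritic arrays 0 rose and 20 fell (22%, against 13.3% of all genes, and 10% that fell), with a median of −0.19 against −0.03. Without remission replicate 2 the second count was 9, without remission replicate 1 it was 10, and without nephritic replicate 1 it was 13. With the tubule score as a covariate it was 13, of which 5 rose and 8 fell, and after a repeated quantile normalization it was 16, of which 2 rose and 14 fell. In remission against prenephritic arrays 0 of the 91 passed in limma, and 9 had an unadjusted p below 0.05. The counts for single lists that follow rest on few genes and are to be read against these shares of all genes.

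**Figure D4:**
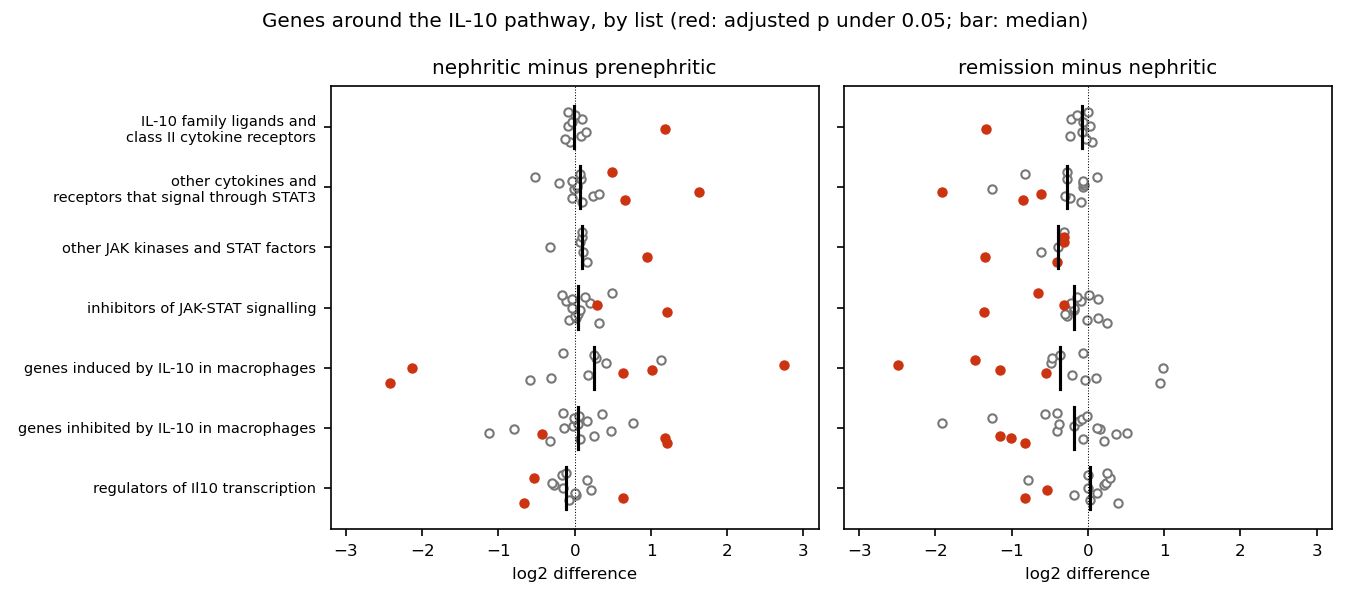
Log2 differences (horizontal axes) of the measured genes of 7 lists around the IL-10 pathway, with 1 point per gene, filled red where the limma adjusted p was below 0.05, and a bar at the median of each list. Il1rn is the point farthest to the right among nephritic minus prenephritic differences, at 2.75, and farthest to the left in remission minus nephritic, at −2.49.

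Of genes that IL-10 is known to induce in macrophages, 13 of 15 were measured, and 3 rose and 2 fell in nephritis. Il1rn, the IL-1 receptor antagonist, had lowest, median and highest values of 5.05, 6.00 and 6.39 in prenephritic and 7.88, 8.48 and 9.52 in nephritic arrays, and ran from 5.38 to 6.65 in remission. Its nephritic arrays lay apart from all others. Il1rn rose by 2.75 ± 0.28 in nephritis (limma adjusted p = 1.6e-05) and fell by 2.49 ± 0.32 in remission (adjusted p = 0.00018). Hmox1, heme oxygenase 1, rose by 1.01 ± 0.19 (adjusted p = 0.0023) and fell by 1.15 ± 0.22 (adjusted p = 0.0024), and Fcgr1, the high-affinity IgG receptor, rose by 0.63 ± 0.14 and fell by 0.55 ± 0.16 (adjusted p = 0.007 and 0.031).

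Other called genes of that list fell in nephritis. Cd163, the scavenger receptor for haemoglobin bound to haptoglobin, ran from 10.62 to 11.48 with a median of 10.97 in prenephritic arrays and from 7.49 to 10.22 with a median of 8.17 in nephritic arrays. Cd163 fell by 2.42 ± 0.39 in nephritis (limma adjusted p = 0.00063). In remission Cd163 was at 9.56 ± 0.29 (SD, n = 4), with a difference of 0.94 ± 0.44 from nephritic arrays (adjusted p = 0.16). Il1r2, a decoy receptor for IL-1 that was named after its values had been seen, fell by 2.13 ± 0.50 in nephritis (adjusted p = 0.01). Nfil3, a transcription factor through which IL-10 restrains Il12b, differed by 1.13 ± 0.42 in nephritis (adjusted p = 0.093) and fell by 1.48 ± 0.47 in remission (adjusted p = 0.048), with group means of 8.02, 9.15 and 7.67 in prenephritic, nephritic and remission arrays. The remission calls were lost in 15 of 28 alternative fits for Nfil3 and in 8 of 28 for Fcgr1. The median difference of this list was 0.25 in nephritis and −0.37 in remission.

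All 19 listed genes that IL-10 is known to inhibit were measured, and 2 rose and 1 fell in nephritis, a share near the 12.1% of all genes that passed. Cd40, a costimulatory receptor, rose by 1.19 ± 0.17 (limma adjusted p = 2e-04) and Ccl2, a monocyte-attracting chemokine, by 1.21 ± 0.22 (adjusted p = 0.0016), while Cd86, another costimulatory molecule, fell by 0.43 ± 0.12 (adjusted p = 0.025). Tnf, Il6 and Il12b, classical cytokines of this list, differed by −0.16 ± 0.28, −0.01 ± 0.53 and 0.04 ± 0.27 (adjusted p = 0.80, 0.99 and 0.95), with nephritic replicate 6 the highest of its group for each, at 11.24, 8.04 and 7.38. In remission Cd40, Cd80 and Ccl2 fell by 1.01 ± 0.19, 1.15 ± 0.28 and 0.82 ± 0.25 (adjusted p = 0.0022, 0.012 and 0.037). The remission call on Ccl2 was lost in 9 of 28 alternative fits and that on Cd80 in 3, and the nephritic call on Cd86 was lost in 5. The list's median difference was 0.04 and −0.19, and like the list of induced genes it held some that rose and some that fell in nephritis.

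Among the genes of related signalling, Il27ra, a receptor chain for IL-27, which also signals through STAT3, had the smallest p in both comparisons on its list. It rose by 1.63 ± 0.20 in nephritis (limma adjusted p = 6.6e-05) and fell by 1.91 ± 0.22 in remission (adjusted p = 9.8e-05). Of 15 measured genes of other cytokines and receptors that use STAT3, 3 rose in nephritis, the others being Csf3r, the receptor for G-CSF (0.66 ± 0.15, adjusted p = 0.0073), and Osmr, a receptor chain for oncostatin M (0.49 ± 0.10, adjusted p = 0.0032), whose prenephritic mean of 4.55 was under 5.02, the lower quartile of the means of all probe sets. Il27ra, Csf3r and Il21r, the IL-21 receptor, fell in remission. The shared IL-6 family chain Il6st differed by 0.03 ± 0.07 and −0.05 ± 0.08 (adjusted p = 0.85 and 0.75).

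Of 7 measured further JAK and STAT genes, Jak3, the kinase of common gamma chain receptors, rose by 0.95 ± 0.20 in nephritis (limma adjusted p = 0.0052). In remission 4 of the 7 fell, Jak3 by 1.35 ± 0.23 (adjusted p = 0.0013), Jak2 by 0.41 ± 0.12 (adjusted p = 0.029), Stat5a by 0.31 ± 0.09 (adjusted p = 0.025) and Stat5b by 0.31 ± 0.10 (adjusted p = 0.047). Of 28 alternative fits, 16 lost the call on Stat5b, 10 that on Jak2 and 6 that on Stat5a. The median of these 7 genes was −0.39 in remission against nephritic arrays. Of 15 measured inhibitors of JAK-STAT signalling, Ptpn1, a phosphatase that acts on JAK2 and TYK2, rose by 1.21 ± 0.15 in nephritis (adjusted p = 7.3e-05) and fell by 1.36 ± 0.17 in remission (adjusted p = 0.00015). Ptpn6, the phosphatase SHP-1, rose by 0.29 ± 0.08 and fell by 0.31 ± 0.09 (adjusted p = 0.035 and 0.042), and these calls were lost in 11 and 13 of 28 alternative fits. Usp18, an inhibitor of type I interferon signalling, fell by 0.65 ± 0.20 in remission (adjusted p = 0.044), a call that 19 of 28 alternative fits lost. Socs1, another inhibitor of the Socs3 family, differed by 0.20 ± 0.10 and −0.22 ± 0.11 (adjusted p = 0.22 and 0.20).

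Of 10 measured relatives of the IL-10 ligand and receptor, Ifnlr1, which pairs with Il10rb to form the receptor for lambda interferons, rose by 1.19 ± 0.25 in nephritis (limma adjusted p = 0.0053) and fell by 1.34 ± 0.29 in remission (adjusted p = 0.006). Its remission mean of 4.98 also lay below that quartile. The interferon receptor genes Ifngr1, Ifngr2, Ifnar1 and Ifnar2 differed by at most 0.23 in size in these comparisons, with adjusted p of at least 0.30. Of 13 measured regulators of Il10 transcription, Cebpb rose by 0.63 ± 0.17 in nephritis (adjusted p = 0.022), and Ahr, the aryl hydrocarbon receptor, and Rps6ka5, the kinase MSK1, fell by 0.66 ± 0.12 and 0.53 ± 0.12 (adjusted p = 0.0017 and 0.0065). Without the 2 arrays that stood apart Cebpb was at 0.48 ± 0.17 (adjusted p = 0.10). In remission Cebpb fell by 0.83 ± 0.19 and Map3k8, the kinase TPL2, by 0.54 ± 0.16 (adjusted p = 0.009 and 0.035), and 12 of 28 alternative fits lost the call on Map3k8. Maf, a transcription factor that drives Il10 in macrophages, differed by 0.00 ± 0.09 and 0.12 ± 0.10 (adjusted p = 0.98 and 0.47).

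Genes of other cells that can make IL-10 were present in the same arrays, at levels that moved in part with Il10. Of 9 measured T cell markers 3 rose and 1 fell in nephritis. Cd3g rose by 1.47 ± 0.27 and Cd3e by 0.67 ± 0.18 (limma adjusted p = 0.0019 and 0.024), with mean Cd3g levels of 4.22, 5.70 and 4.10 in prenephritic, nephritic and remission arrays, the first and last below the lower quartile of 5.02. The call on Cd3e was lost in 6 of 28 alternative fits. Cd28, a costimulatory receptor of T cells, fell by 1.76 ± 0.25 (adjusted p = 0.00022). The array mean of the T cell list ran from 5.78 to 6.12 in prenephritic, 5.84 to 6.30 in nephritic and 5.69 to 6.05 in remission arrays. In remission 4 of the T cell markers fell and 1 rose.

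Of 9 measured B cell and plasma cell markers 5 rose and 1 fell in nephritis, among them Jchain, the joining chain of secreted antibodies (2.76 ± 0.52), and Mzb1, a plasma cell chaperone (1.95 ± 0.32). The gene that fell was Tnfrsf17, the plasma cell receptor BCMA, by 1.73 ± 0.26 (limma adjusted p = 0.00035), and it rose by 1.04 ± 0.29 in remission (adjusted p = 0.025, lost in 4 of 28 alternative fits). The array mean of this list ran from 6.16 to 7.19 in prenephritic, 6.92 to 7.78 in nephritic and 6.48 to 6.76 in remission arrays, where 3 of its genes fell and 1 rose. Of 9 mast cell and eosinophil markers 0 rose and 2 fell in nephritis, with array means between 4.64 and 5.26 over all groups. Of 6 natural killer cell markers 0 rose and 1 fell, of 5 neutrophil markers 0 passed (0 also at an unadjusted p below 0.05 in limma), and of 6 dendritic cell markers 1 rose and 2 fell. Of 5 endothelial markers 1 rose and 0 fell, and of 6 fibroblast and mesangial cell markers 0 rose and 1 fell. The tubule lists had 0 of 21 genes past the limma test in nephritis (1 at an unadjusted p below 0.05). In remission against nephritic arrays 2 of the 21, Calb1 and Pvalb, rose, and 9 of the 11 proximal tubule genes had an unadjusted p below 0.05 with a median difference of 1.10. The part of T cell, B cell and plasma cell RNA in the Il10 differences was not tested.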

How the data were processed

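The authors deposited log2 expression values made with RMA (background correction, quantile normalization and a summary per probe set), per the submitters' processing notes, with no version stated. RMA gives all arrays a common distribution, so these values hide changes in how much RNA a cell holds, and they shrink differences between dim genes. Of 16539 probe sets, 64 were controls and 695 others had no gene symbol. The 15780 with 1 symbol were tested with no filter on level, and no per-sample column was left unmapped (0). Deposited values ran from 1.76 to 15.0, with array medians from 7.49 to 7.68. Of the named genes, 15752 were found by Entrez identifier in a RefSeq table of GRCm38.p6.

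Group means were fitted in a linear model over all 17 arrays with limma 3.58.1 in R 4.3.3 (14 residual degrees of freedom), with two-sided tests adjusted over all genes of a comparison and a threshold of 0.05. Exact permutation tests listed every order of the arrays in Python 3.11.15, with ranks and the adjustment over tests from scipy 1.17.1. On simulated data, the fit found 97.0% of genes with a log2 change of 1 in a simulation of nephritic minus prenephritic, 83.6% in one of remission minus nephritic and 85.1% in one of remission minus prenephritic. Of genes with a log2 change of 0.5 it found 73.1%, 55.2% and 52.2%. The simulated noise was normal and independent between genes, and a far smaller share of genes was changed than passed in the first 2 comparisons of the real data. The numbers in the titles were not treated as pairs of arrays. Deviations of same-numbered arrays from their group means correlated between −0.26 and 0.80, and not all were above 0.1. The highest was for replicate 3 of the nephritic and prenephritic groups. Whether some arrays belong together by number was not settled, and a fit with the replicate number as a block is given below.

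The members and lists were chosen with earlier results of these data known, and the rise and fall of Il10 were among those results. The text names all 8 members, at most 4 called genes of each pathway list and comparison with the smallest p, the macrophage markers, at most 3 called genes of each other marker list, and the 6 genes most like Il10, without identifier-only symbols. Genes that did not pass and are named as well known examples were chosen after their values were seen. The alternatives changed the filter, the scaling, the variance prior, array weights, the groups in the fit, the replicate number as a block, a tubule score as a covariate, the probe sets tested, a minimum change of 1.5-fold (limma's treat), and the arrays used.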

Additional observations from a re-analysis of the deposited data

Results flagged for a closer look

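Il10 in remission replicate 4 was at 6.69, the highest of the 4 remission arrays, with the nearest other array at 5.71. The gap took 0.89 of the group's range, above Dixon's 95% critical value of 0.829 for 4 values. This array was also the highest of its group for Stat3 (10.15), Socs3 (10.50) and Bcl3 (9.15), though for these the gap did not pass. Without it Il10 differed by −3.12 between remission and nephritic arrays.

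Il10ra in nephritic replicate 2 was at 11.23, the lowest of the 7 nephritic arrays, with the nearest other array at 11.48 and a gap of 0.59 of the range, against a critical value of 0.568. Of 27 groups of values examined in this way (the 8 genes and the tubule score in 3 groups) 2 were marked, and chance marks about 1 in 20.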

How the results depend on the processing

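Over 28 alternatives Il10 differed by 1.86 to 2.83 in nephritic minus prenephritic arrays (limma adjusted p 0.0013 to 0.11), by −3.38 to −2.59 in remission minus nephritic (0.0011 to 0.11) and by −0.80 to −0.04 in remission minus prenephritic (0.44 to 1). The call on Il10 was lost only where a change of at least 1.5-fold was asked for (2.47 and −2.86, adjusted p = 0.11 for both). Under that test 105 genes and 1 member (Bcl3) passed in nephritic minus prenephritic and 38 genes and 0 members in remission minus nephritic arrays, with 4 and 2 genes of the pathway lists. With the tubule score as a covariate 2919 genes passed in the first comparison, of which 1389 were higher, and 1322 in the second, with 13 of the pathway lists. Array weights gave 3624 in the second comparison, and leaving out both arrays that stood apart gave 1236 in the first.

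Remission minus prenephritic, with 1 gene in the reported fit, gave 5 after repeated quantile normalization, 3 after median subtraction, 3 with another variance prior, 358 with array weights (1 member, Tyk2) and 478 with the replicate block. It gave 0 with only the 2 groups compared, with the tubule score, with the 1.5-fold minimum and without both arrays. Leaving out 1 array at a time gave 1466 to 2032 genes in the first comparison, 1021 to 2921 in the second (lowest without remission replicate 2, and 1121 without remission replicate 1) and 0 to 199 in the third (highest without prenephritic replicate 6, with 1 member, Tyk2). The same left 4 members in the first, 3 to 5 in the second and 0 to 1 in the third, and 16 to 20, 9 to 23 and 0 genes of the pathway lists. Il10 then differed by 2.14 to 2.83, −3.12 to −2.59 and −0.73 to −0.04.

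With the replicate block 1700 and 2887 genes passed in the first comparisons, and 4, 4 and 0 members, with Il10 at 2.56, −3.02 and −0.47. The block changed no call on a member.

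Il10rb turned sign in nephritic minus prenephritic without both arrays (0.05) and without prenephritic replicate 3 (0.02), nephritic replicate 2 (0.04) or nephritic replicate 6 (0.06). It turned in remission minus nephritic without both arrays (−0.02), nephritic replicate 6 (−0.02) or remission replicate 4 (0), and in remission minus prenephritic with the replicate block (−0.02) and without prenephritic replicate 2 (0) or remission replicate 4 (−0.03). Socs3 turned in remission minus prenephritic without prenephritic replicate 4 (0.20) or remission replicate 2 (0.03), and Bcl3 without remission replicate 2 (0.05). Over the fits that left out 1 array, Il10rb ran from −0.08 to 0.06, from −0.02 to 0.12 and from −0.03 to 0.09 in the 3 comparisons, and in remission minus prenephritic Socs3 ran from −0.31 to 0.20 and Bcl3 from −0.19 to 0.05. The causes were not tested. Remission rests on 4 arrays, and Ifnlr1, Osmr and Cd3g lay close to the lower quartile of signals, where RMA compresses differences.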
